A study of Mus musculus with 6 samples.

Results

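RNase P and RNase MRP are related RNA-protein enzymes, and their RNA and protein components were followed in haematopoietic stem cells with and without induction of the ETV6-RUNX1 fusion. The components were taken by name from the deposited gene table: the RNAs Rpph1, Rprl2, Rprl3 and Rmrp and the protein subunits Pop1, Pop4, Pop5, Pop7, Rpp30 and Rpp38. These 10 symbols matched 11 of the 55471 gene IDs in the table, because Rmrp is listed under 2 IDs, and all 11 reached the minimum of a mean of 1 TPM (the authors' length-corrected share of a library's transcripts) over the 6 libraries. The members were chosen by a list drawn up with the TPM differences between induced and uninduced libraries known, among them those of Rprl3 and Rprl2. Differences of the members are therefore described without p-values, and calls on them appear only as counts from which nothing is read.

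Total RNA was sequenced from stem cells sorted as Lin- Kit+ Sca1+ CD48- CD150+. All 6 libraries came from mice of the ETV6-RUNX1 genotype: 3 libraries from uninduced mice without doxycycline and 3 from mice induced with doxycycline food for 2 weeks. ETV6-RUNX1 is the fusion of 2 transcription factor genes found in childhood B-cell precursor leukaemia. The labels give no strain, age, sex, pooling of animals or driver of the fusion gene, and a doxycycline group that lacks the fusion is not analysed here, so effects of the fusion and of the drug cannot be told apart. The labels also do not say whether the groups share strain background or litters, and a difference in these cannot be told apart from induction either.

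RNase P removes the leader from the front of precursor transfer RNAs, and RNase MRP cuts the precursor of ribosomal RNA in a spacer between the mature parts. Each enzyme is built on its own RNA, which holds the active site, and most of the protein subunits are shared by both. Rpph1 is the RNA of RNase P and Rmrp that of RNase MRP. Both RNAs are made by RNA polymerase III from promoters that lie upstream of the gene. In people, inherited changes in the RMRP gene cause cartilage-hair hypoplasia, a growth disorder with immune deficiency.

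Rprl2 and Rprl3 are named as RNase P RNA-like genes, and their sequences show how close they are to Rpph1. The transcripts are those of GENCODE M21 on GRCm38, 5′ to 3′, with Rpph1 shown from base 1 to base 257, the part that the copies align with. Capitals in Rprl3 and Rprl2 mark bases that differ from Rpph1 or that lie past the part that aligned with it.
Rpph1: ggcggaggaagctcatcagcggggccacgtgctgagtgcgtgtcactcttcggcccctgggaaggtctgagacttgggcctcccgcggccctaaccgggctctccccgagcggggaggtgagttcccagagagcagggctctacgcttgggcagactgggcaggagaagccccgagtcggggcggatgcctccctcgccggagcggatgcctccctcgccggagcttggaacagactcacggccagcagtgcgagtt
Rprl3: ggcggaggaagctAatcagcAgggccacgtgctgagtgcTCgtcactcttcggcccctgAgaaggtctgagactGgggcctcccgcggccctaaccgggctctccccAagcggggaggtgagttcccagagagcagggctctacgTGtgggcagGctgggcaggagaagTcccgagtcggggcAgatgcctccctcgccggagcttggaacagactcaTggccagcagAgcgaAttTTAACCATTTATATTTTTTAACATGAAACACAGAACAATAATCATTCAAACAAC
Rprl2: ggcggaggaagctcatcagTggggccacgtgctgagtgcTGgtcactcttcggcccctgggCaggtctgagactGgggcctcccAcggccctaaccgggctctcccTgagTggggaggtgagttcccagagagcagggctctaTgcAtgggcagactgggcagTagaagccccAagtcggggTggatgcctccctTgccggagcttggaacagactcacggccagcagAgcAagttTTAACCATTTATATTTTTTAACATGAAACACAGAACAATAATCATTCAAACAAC
Rpph1 (ENSMUSG00000092837) lies at chr14:50807449-50807767 on the minus strand and is 319 bases long. Rprl3 (ENSMUSG00000088025) lies at chr8:3803069-3803358 on the minus strand and Rprl2 (ENSMUSG00000087775) at chr3:22251374-22251663 on the plus strand, each 290 bases long. Neither overlaps another gene in the RefSeq table of the same build.

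Over the first 236 bases, Rprl3 matched Rpph1 at 221 positions and Rprl2 at 220, with identities of 93.6% and 93.2%. Both copies lacked a run of 21 bases. That is the length of the stretch gcggatgcctccctcgccgga, which Rpph1 carries 2 times in tandem, from its bases 182 and 203. The last 54 bases of both copies did not align with Rpph1. Rprl3 and Rprl2 matched each other at 92.1% of 290 bases and were identical over bases 235 to 290. The longest run that Rprl3 shares with Rpph1 was 37 bases and that of Rprl2 32 bases. Of the 191 windows of 100 bases in each copy, the length of a read per the labels' protocol, 0 were identical to Rpph1. Reads with mismatches could still have been assigned to either gene, so the values of the 3 RNAs are uncertain to that extent.

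Rpph1 was the second or the third most abundant row of every library. It stood at 68560, 83647 and 64064 TPM in uninduced cells, compared with 56034, 50725 and 61263 TPM in induced cells. The mean was 72090 ± 10258 TPM (SD, n = 3) without induction and 56007 ± 5269 TPM (SD, n = 3) with it, a ratio of 0.777. The groups did not overlap, although the highest induced library lay close to the lowest uninduced library.

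The difference in Rpph1 was on the log2(TPM + 1) scale -0.36 (SE 0.14), and the median of all 13470 tested genes on this scale was -0.35. After median-of-ratios scaling, which sets the typical gene equal between libraries, the difference of Rpph1 was 0.04 (SE 0.07). Under quantile normalization, another scaling, it was -0.55. Nuclear protein-coding genes held 26.6% to 32.9% of the TPM in uninduced libraries and 20.5% to 23.2% in induced libraries. Set against the TPM of those genes, Rpph1 came to 23.0%, 25.4% and 24.1% in the uninduced libraries and to 25.5%, 24.7% and 26.4% in the induced libraries. On that measure the groups overlapped. The lower Rpph1 value of induced cells thus holds for its share of all TPM and not for its level relative to protein-coding transcripts.

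Rprl3 was close to 0 in the uninduced libraries, at 0.0607, 1.68 and 0.247 TPM. In the induced libraries it stood at 2157, 1881 and 2287 TPM. The groups lay far apart, and in the induced libraries Rprl3 ranked between 21 and 24 among all rows. The difference was 10.43 log2 units (SE 0.31) on the log2(TPM + 1) scale and 10.70 after median-of-ratios scaling.

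Rprl2 showed the same split at a lower level. It was listed at 0.111, 0.0841 and 0 TPM without induction, against 47.0, 41.5 and 33.3 TPM after it. The difference was 5.28 log2 units (SE 0.31) on the log2(TPM + 1) scale. With uninduced values near 0 its size depends on the added constant: it was 8.0 with 0.1 and 3.16 with 5 in place of 1, and that of Rprl3 was 12.15 and 8.55.

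Within the induced libraries Rprl3 stood in a narrow proportion to the main RNA, and Rprl2 in a wider one. Rprl3 came to 3.85%, 3.71% and 3.73% of the Rpph1 TPM of the same library. Rprl2 came to 0.0838%, 0.0818% and 0.0544% of it. In the uninduced libraries the highest such share was 0.00201% for Rprl3. Added together, Rpph1, Rprl2 and Rprl3 gave 68560, 83648 and 64064 TPM in the uninduced libraries and 58238, 52648 and 63584 TPM in the induced libraries. The sum depends little on how reads were divided between the 3 rows, which differ only slightly in length, and it was lower in induced cells by less than Rpph1 alone, at -0.30 against -0.36 log2 units. The sum was 0.096 log2 units higher after median-of-ratios scaling.

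**Figure D1:**
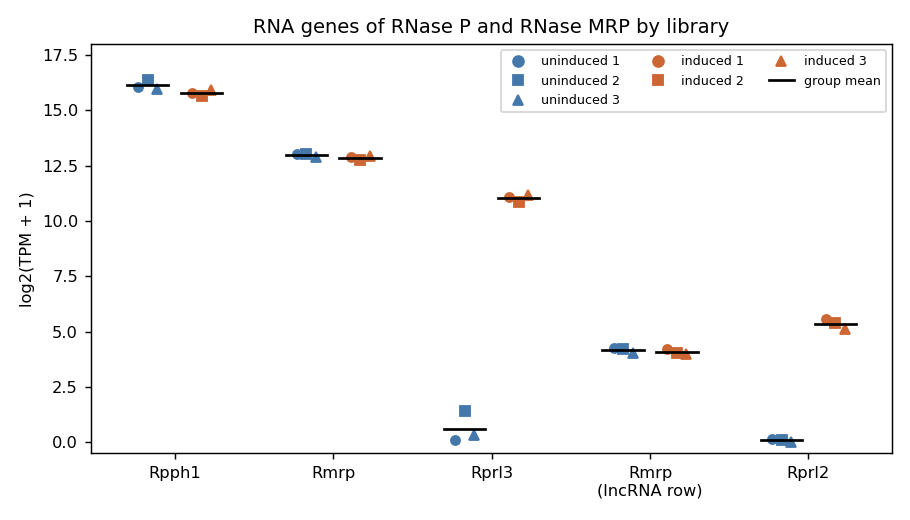
RNA genes of RNase P and RNase MRP, with the gene on the x axis and log2(TPM + 1) on the y axis; each point is a library (3 uninduced, 3 induced) and each line a group mean. Rprl3 and Rprl2 are near 0 in the uninduced libraries and stand at 1881 to 2287 and 33.3 to 47.0 TPM in the induced libraries, while Rpph1 and Rmrp differ little on this scale.

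Rprl1, another copy in the mouse genome, was listed at 0 in all 6 libraries under both of its gene IDs. Its transcript matched Rprl3 at 92.1% of 290 aligned bases and Rpph1 at 91.1% of 236. The table holds 22 rows of the ribozyme type, of which 17 were listed at 0 in every library. Of the 17 ribozyme genes other than Rpph1 that BLAST matched to Rpph1, 14 were listed at 0 throughout, and the exceptions were Rprl3, Rprl2 and Gm25661. Gm25661 did not exceed 0.912 TPM.

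Rmrp (ENSMUSG00000088088, chr4:43492788-43493058, minus strand) differed little on the deposited scale. It stood at 8355, 8235 and 7541 TPM in uninduced cells, compared with 7610, 6870 and 7850 TPM in induced cells, and the groups overlapped. The means were 8044 ± 439 and 7443 ± 511 TPM (SD, n = 3 each). The difference was -0.11 log2 units (SE 0.12) on the log2(TPM + 1) scale and 0.29 after median-of-ratios scaling, so its sign followed the scale. Relative to the TPM of nuclear protein-coding genes, Rmrp came to 2.80%, 2.50% and 2.83% in the uninduced libraries and to 3.46%, 3.34% and 3.38% in the induced libraries, without overlap.

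The second Rmrp row (ENSMUSG00000115420), a long noncoding RNA model at chr4:43492783-43493063, spans the first row whole. It stood at 15.4 to 18.2 TPM without induction, against 15.1 to 17.9 TPM after it. Reads inside the shared bases cannot be told apart between the rows.

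**Figure D2:**
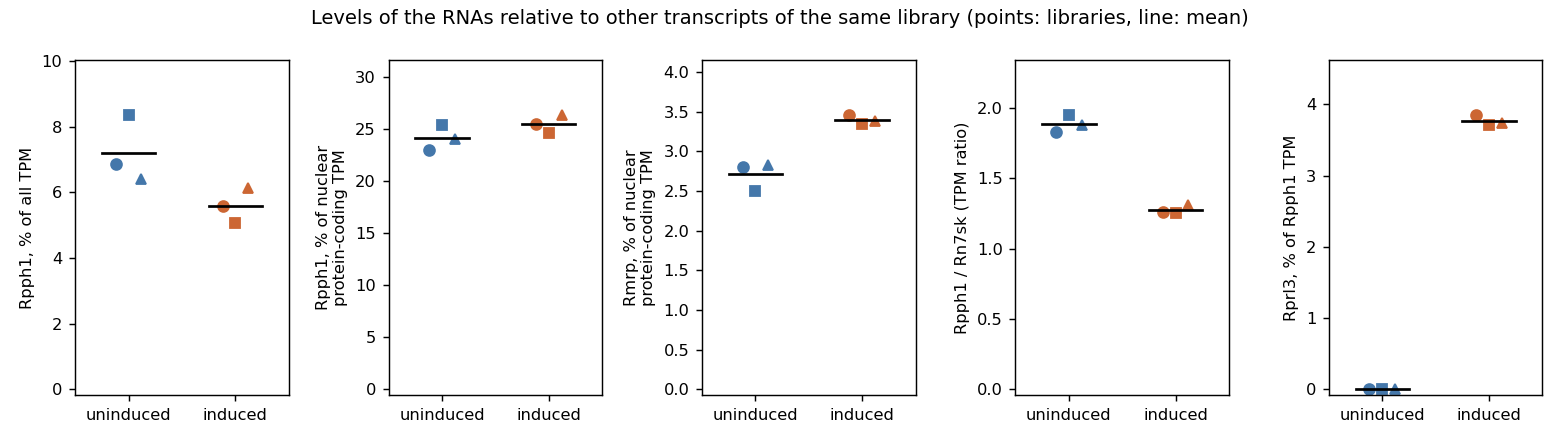
Levels of the RNAs relative to other transcripts of the same library, in 5 panels with the group on the x axis and a share in percent or a ratio of TPM values on the y axis; points are libraries and lines are group means. Rpph1 is lower in induced libraries as a share of all TPM but overlaps as a share of protein-coding TPM, and Rprl3 stands at 3.71% to 3.85% of Rpph1 in the induced libraries.

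The 2 enzyme RNAs also differed in their proportion to each other and to 7SK, an RNA polymerase III transcript that restrains transcription elongation. The Rpph1 level was 8.21, 10.2 and 8.50 times that of Rmrp in the uninduced libraries and 7.36, 7.38 and 7.80 times in the induced libraries. Rpph1 was 1.83 to 1.95 times the level of Rn7sk in uninduced cells and 1.25 to 1.31 times in induced cells. Neither ratio overlapped between the groups. Both are levels per length, taken within a library, and do not depend on the scaling between libraries. Rn7sk itself stood at 34110 to 42836 and 40719 to 46770 TPM, with overlapping groups.

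The protein subunits were present at far lower levels than the RNAs. The 6 subunits among the members together came to 53.7, 69.0 and 47.3 TPM in the uninduced libraries and to 40.6, 44.2 and 31.3 TPM in the induced libraries. These sums did not overlap. Relative to the TPM of nuclear protein-coding genes they did overlap, at 0.0178% to 0.0210% in the uninduced and 0.0135% to 0.0215% in the induced libraries. In bulk samples such as these, fewer cells of a type and less RNA per cell cannot be told apart.

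Pop1, the largest subunit and a scaffold that wraps the RNA, stood at 3.76, 7.57 and 1.91 TPM in uninduced cells, compared with 2.19, 1.09 and 0.313 TPM in induced cells. The groups overlapped through uninduced replicate 3, which was below induced replicate 1. The difference of -1.25 log2 units (SE 0.52) was the lowest of the members on the log2(TPM + 1) scale over all 6 libraries. It became -1.91 with an added constant of 0.1 and -0.57 with 5, where Pop7 was lower at -0.66. Without uninduced replicate 2, Pop7 was also lower, at -1.24 against -0.85 for Pop1.

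Pop7, also called Rpp20, pairs with Rpp25 or its relative Rpp25l on the RNA. It stood at 9.72, 6.61 and 8.26 TPM without induction, against 5.09, 3.54 and 1.71 TPM after it. It was the only protein member whose groups did not overlap on the deposited scale, where 28.2% of all tested genes were lower without overlap. The difference was -1.11 log2 units (SE 0.38) and became -0.78 after median-of-ratios scaling and -0.66 with an added constant of 5.

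Rpp30, which together with Pop5 is part of the protein core next to the catalytic part of the RNA, stood at 10.1, 17.1 and 6.43 TPM in the uninduced libraries. In the induced libraries it stood at 4.95, 8.83 and 4.58 TPM, so that 1 induced library lay within the uninduced range. The difference was -0.73 log2 units (SE 0.39) and became -0.37 after median-of-ratios scaling. Pop5 stood at 11.3, 10.1 and 13.6 TPM without induction and at 12.8, 17.8 and 7.29 TPM with it. The induced libraries of Pop5 lay on both sides of the uninduced ones, and the difference was 0.04 log2 units (SE 0.33). That difference became 0.41 (SE 0.36) after median-of-ratios scaling.

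Rpp38, a subunit of the family that binds kinked RNA turns, stood at 11.3, 8.40 and 5.62 TPM in the uninduced libraries. It stood at 5.59, 4.18 and 8.05 TPM in the induced libraries, with overlap and a difference of -0.44 log2 units (SE 0.35). That difference became -0.09 after median-of-ratios scaling. Pop4, also called Rpp29, stood at 7.54, 19.2 and 11.5 TPM without induction and at 10, 8.77 and 9.33 TPM with it. The induced libraries of Pop4 all lay inside the uninduced range. Its difference was -0.32 log2 units (SE 0.33) and became 0.05 after median-of-ratios scaling.

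**Figure D3:**
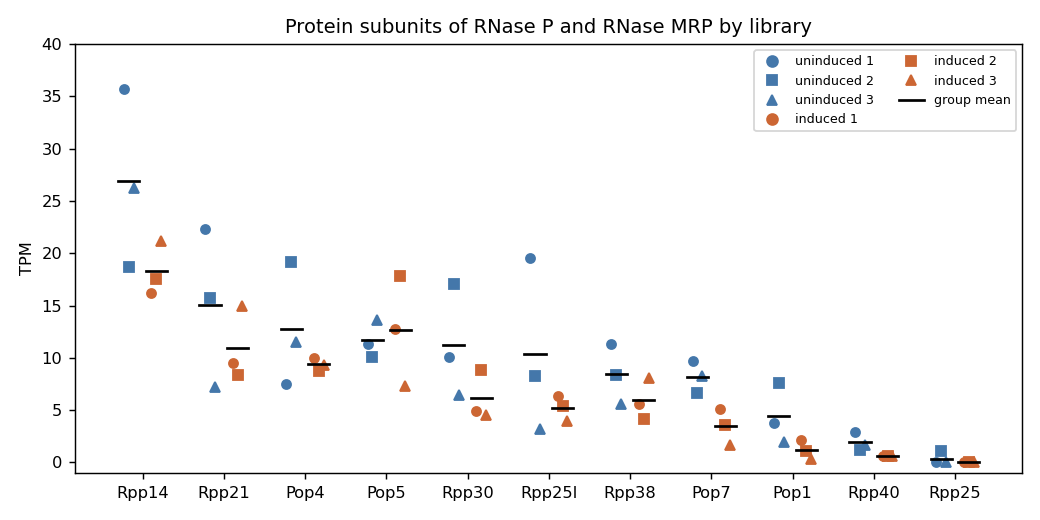
Protein subunits of RNase P and RNase MRP, members and others, with the gene on the x axis, ordered by uninduced mean, and TPM on the y axis; each point is a library and each line a group mean. Pop7 and Rpp40 are the subunits whose groups do not overlap, where 28.2% of all tested genes are lower without overlap. The spread among uninduced libraries is wide for Rpp14, Rpp21 and Rpp25l.

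The order of the subunits by mean TPM was similar in both groups, with Rpp14 first and Pop1, Rpp40 and Rpp25 last. Each neighbour in that order overlapped the next in its range over libraries, with the exception of Rpp40 and Rpp25 in both groups. Replicates of the uninduced group spread widely, as for Pop4 with an SD of 5.93 TPM around a mean of 12.7 TPM.

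Of the 11 member rows, 2 passed an adjusted p of 0.05 in the limma fit across all genes, Rprl3 and Rprl2, both higher in induced cells. Over all tested genes 11.5% passed in either direction, 1.29% as higher and 10.2% as lower. After median-of-ratios scaling 3 member rows passed, the third being Rmrp, all as higher, beside 6.05% of all tested genes (2.84% higher, 3.21% lower). Groups did not overlap for 4 member rows, 2 of them higher (Rprl3, Rprl2) and 2 lower (Rpph1, Pop7), where 33.1% of all tested genes did not overlap (4.83% higher, 28.2% lower). Since the members were chosen with this contrast known, nothing is read from these counts. The median difference of the 6 protein members was -0.58 log2 units, beside -0.35 for all tested genes. After median-of-ratios scaling it was -0.23, beside -0.0027 for all tested genes.

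**Figure D4:**
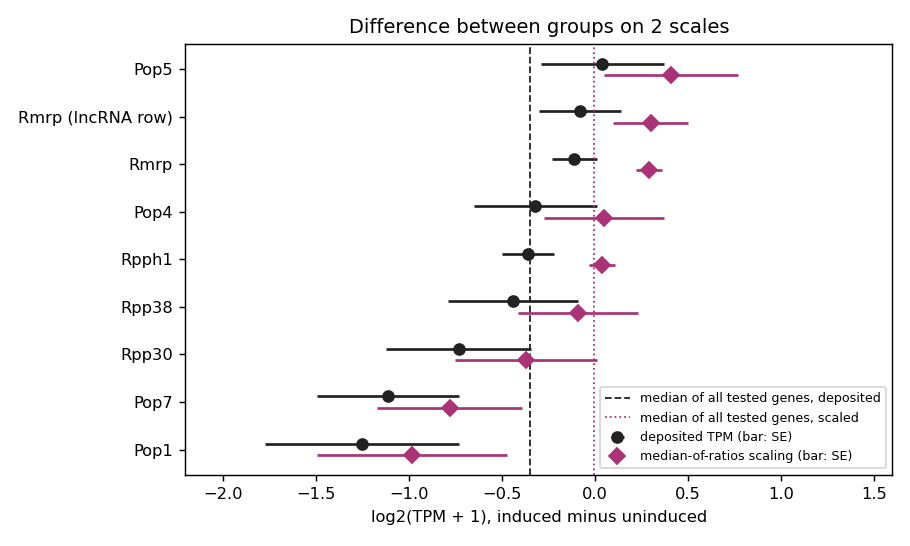
Difference between induced and uninduced cells in log2(TPM + 1) on the x axis for the member rows on the y axis other than Rprl3 and Rprl2, on the deposited scale and after median-of-ratios scaling, with bars for the SE and lines for the median of all tested genes. Rpph1 lies near the median gene on both scales, Rmrp to the right of it, and Pop7 and Pop1 to the left of it.

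The remaining subunits of the enzymes were not among the members. None of the 4 that could be tested (Rpp14, Rpp21, Rpp25l and Rpp40) passed the threshold in either direction with limma, and 0 had an unadjusted p under 0.05. The median of the 4 differences was -0.54 log2 units, beside -0.35 for all tested genes, and -0.18 after median-of-ratios scaling.

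Rpp40 stood at 2.95, 1.22 and 1.69 TPM in uninduced cells, compared with 0.630, 0.627 and 0.634 TPM in induced cells. Its groups did not overlap, and the difference was -0.82 log2 units (SE 0.44, limma adjusted p 0.262). At this level, log2(TPM + 1) understates a change.

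Rpp14, which is often found with a mitochondrial enzyme on a joint transcript, stood at 35.7, 18.7 and 26.2 TPM without induction and at 16.2, 17.5 and 21.2 TPM with it (limma adjusted p 0.266). Rpp21, a subunit of RNase P that RNase MRP lacks, stood at 7.18 to 22.3 and 8.33 to 15.0 TPM (limma adjusted p 0.612). Rpp25l stood at 3.22 to 19.5 and 3.92 to 6.39 TPM (limma adjusted p 0.492). All 3 overlapped between the groups. Rpp25 was below the minimum, with 1.06 TPM in uninduced replicate 2 and 0 listed in the other libraries.

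Transfer RNA maturation was followed through 30 further genes, of which 29 were tested. The list covers mitochondrial leader removal, trimming of the trailing end, splicing, base modification and export. With limma, 5 genes fell and 0 rose at an adjusted p under 0.05, where 10.2% of all tested genes fell and 1.29% rose. The median difference was -0.59 log2 units, beside -0.35 for all tested genes. After median-of-ratios scaling it was -0.24, beside -0.0027 for all tested genes.

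Nsun2, a methyltransferase that marks cytosines in transfer RNA, fell to 27.8 ± 1.31 TPM from 64.3 ± 12.7 TPM (SD, n = 3 per group), a difference of -1.16 log2 units (SE 0.20, limma adjusted p 0.00694). Its libraries stood at 55.1, 78.7 and 59.0 TPM without induction and at 29.2, 26.5 and 27.8 TPM with it, far apart. Nsun2 was called lower under each of the 16 alternatives.

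Pus7 and Pus1 make pseudouridine, a rearranged base of transfer RNA. Pus7 fell to 6.59 ± 2.80 TPM from 18.3 ± 2.94 TPM (SD, n = 3 per group; limma adjusted p 0.0239), and Pus1 fell to 10.2 ± 3.06 TPM from 22.9 ± 5.03 TPM (SD, n = 3 per group; limma adjusted p 0.0382). Ddx1, a helicase of the transfer RNA ligase complex, fell to 12.6 ± 3.36 TPM from 26.6 ± 6.33 TPM (SD, n = 3 per group; limma adjusted p 0.0402). Ssb, the La protein that holds the trailing end of new RNA polymerase III transcripts, fell to 76.2 ± 8.94 TPM from 115 ± 11.5 TPM (SD, n = 3 per group; limma adjusted p 0.0492). After median-of-ratios scaling 1 gene was called, Nsun2, with a difference of -0.77 log2 units. With any single library left out, 1 to 3 genes were called, of which 1 or 2 were among these 5, so the count changed with each of the 6 libraries.

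RNA polymerase III and its initiation factors make Rpph1, Rmrp and the transfer RNA precursors. They were followed through 32 listed genes, all of them tested; subunits shared with RNA polymerase II are not in the list. With limma, 3 fell and 0 rose at an adjusted p under 0.05, a share near the 10.2% of all tested genes that fell. The median difference was -0.60 log2 units, beside -0.35 for all tested genes. After median-of-ratios scaling it was -0.24, beside -0.0027 for all tested genes.

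Polr3a, the largest subunit of the polymerase, fell to 5.98 ± 0.703 TPM from 12.6 ± 1.45 TPM (SD, n = 3 per group; limma adjusted p 0.0456). Polr1c, a subunit shared with RNA polymerase I, fell to 13.9 ± 0.583 TPM from 25.9 ± 4.89 TPM (SD, n = 3 per group; limma adjusted p 0.0431). Gtf3c5, a subunit of the factor that binds promoters inside transfer RNA genes, fell to 6.56 ± 0.454 TPM from 14.2 ± 2.44 TPM (SD, n = 3 per group; limma adjusted p 0.0400).

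None of these 3 calls was kept after median-of-ratios scaling, where the single call was Brf1, higher by 0.88 log2 units (limma adjusted p 0.0235). Brf1 is the initiation factor for transfer RNA genes, and stood at 31.4 ± 4.99 and 44.5 ± 7.57 TPM (SD, n = 3 each) on the deposited scale, with a limma adjusted p of 0.173. With any single library left out, 0 to 2 genes were called, and Gtf3c5, without uninduced replicate 3, was the one call shared with these 3. The list therefore has no call that holds on both scales.

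**Figure D5:**
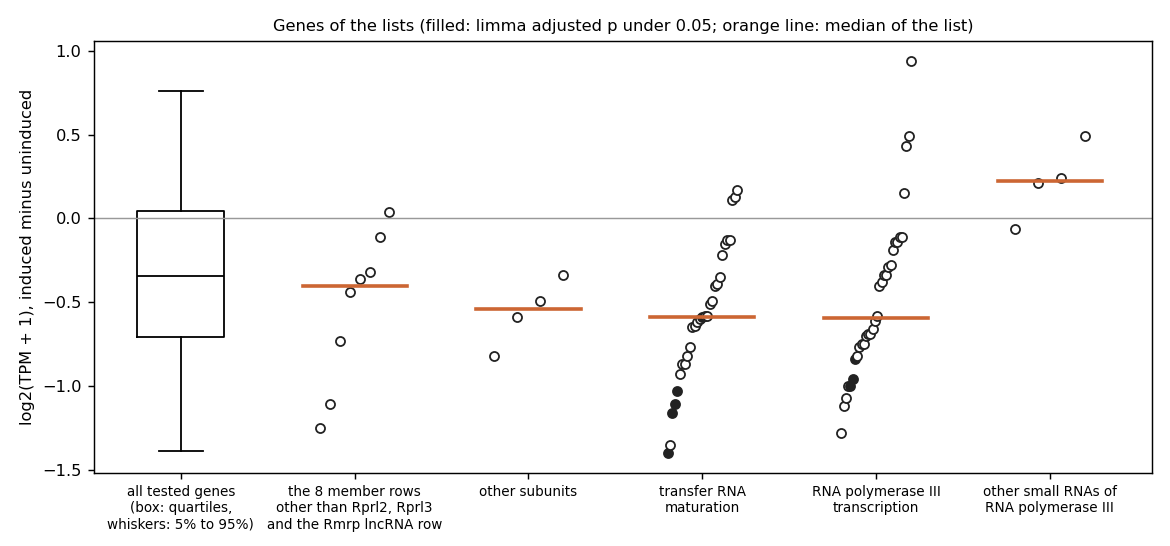
Difference between induced and uninduced cells in log2(TPM + 1) on the y axis for all 13470 tested genes (box for quartiles, whiskers from 5% to 95%) and for single genes of each list on the x axis, filled where the limma adjusted p is under 0.05 (members are not marked). On the deposited scale shown, the medians of the transfer RNA maturation and RNA polymerase III lists are -0.59 and -0.60, beside -0.35 for all tested genes. After median-of-ratios scaling both are -0.24, beside -0.0027.

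Other small RNAs of RNA polymerase III had differences from -0.06 to 0.49 log2 units. Of 4 found and tested, 0 passed with limma on the deposited scale, 1 had an unadjusted p under 0.05, and the median difference was 0.22 log2 units. Rny1, a Y RNA bound by the Ro60 protein, stood at 407, 258 and 308 TPM without induction and at 477, 441 and 427 TPM with it, without overlap (limma adjusted p 0.0998). Vaultrc5, a vault particle RNA, stood at 452 to 532 and 529 to 645 TPM, and Rny3 at 1927 to 3086 and 2239 to 2390 TPM. After median-of-ratios scaling, 3 of the 4 were called higher: Rn7sk by 0.61, Vaultrc5 by 0.64 and Rny1 by 0.89 log2 units. On that scale 2.84% of all tested genes were called higher. Rnu6atac was not found by name.

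A gene next to Rpph1 is Parp2, which encodes a DNA damage sensor and is read in the opposite direction, with 125 bases between the 2 genes in the RefSeq gene table. The window from 250 bases before to 50 after the start of Parp2 (RefSeq, GRCm38.p6, chr14:50807666-50807965, plus strand; the RefSeq promoter table, which takes a start of Parp2 further inside the gene than the gene table does) also holds the upstream region of Rpph1, and it is shown because both genes lie on it. Capitals mark the first 102 bases of Rpph1, which run on the other strand, and the octamer ATGCAAAT on either strand.
Parp2: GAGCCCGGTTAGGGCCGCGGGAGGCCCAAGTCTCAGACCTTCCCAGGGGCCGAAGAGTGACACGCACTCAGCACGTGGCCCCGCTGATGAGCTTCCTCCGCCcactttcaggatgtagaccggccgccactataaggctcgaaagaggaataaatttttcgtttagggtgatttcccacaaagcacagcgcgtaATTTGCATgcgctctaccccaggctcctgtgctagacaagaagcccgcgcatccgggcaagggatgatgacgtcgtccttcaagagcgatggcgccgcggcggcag
The octamer, read on both strands, occurred in 570 of 32851 RefSeq promoter windows of this length, or 1.74%. It lies 92 bases upstream of the start of Rpph1. The window of Ccdc107, the neighbour of Rmrp, holds it as well, 215 bases upstream of Rmrp. Such a match describes the letters and does not show a bound factor.

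Parp2 stood at 31.0, 41.7 and 19.1 TPM without induction, against 15.2, 14.3 and 15.8 TPM after it. The groups did not overlap, and the difference was -0.91 log2 units (SE 0.29), which did not pass with limma (adjusted p 0.0675). Ccdc107 stood at 28.0 to 33.2 and 29.6 to 36.6 TPM, with overlap and a limma adjusted p of 0.903. In GENCODE, Ccnb1ip1 shares 233 bases with Rpph1 on the same strand, and its row was listed at 0 in all 6 libraries.

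Rprl3 and Rprl2 lie between genes, and their neighbours did not show the same split. Cd209a, 54140 bases from Rprl3, was listed at 0 in every library, and the pseudogene Gm7381, 37720 bases away on the other side, was under 1 TPM throughout. Tbl1xr1, a corepressor gene 34775 bases from Rprl2, stood at 28.4, 33.8 and 13.5 TPM without induction and at 23.5, 14.9 and 12.3 TPM with it (limma adjusted p 0.401). Gm37636, on the other side of Rprl2, was listed at 0.

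The tested genes with values most like those of Rprl3 were sought by the Pearson correlation of log2(TPM + 1) over the 6 libraries, members left out. They were Skint3 (r = 0.999), Mtmr9 (r = 0.998), Gm27029 (r = 0.997), Hbb-bt (r = 0.997) and C4b (r = 0.997). Any gene split cleanly between the groups scores high on this measure. Mtmr9, a myotubularin-family protein, stood at 8.22 to 9.65 TPM in uninduced cells, compared with 89.0 to 106 TPM in induced cells.

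Hbb-bt, an adult beta globin, stood at 12.8 to 19.5 and 82.3 to 97.7 TPM. For Rpph1 the closest were Rps20 (r = 0.998), Gm6978 (r = 0.997), Pigu, Rapgef1 and Gm14287 (r = 0.994 each). These were picked as the highest among all tested genes over only 6 libraries, so the r values do not show a link to Rpph1. Rps20, a ribosomal protein gene, stood at 131, 192 and 114 TPM without induction, against 92.6, 76.9 and 104 TPM after it. As with Rpph1, uninduced replicate 2 was the highest library and induced replicate 2 the lowest.

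Several features of the libraries moved with the groups beside these results, and their part in them was not tested. All 4 proliferation markers (Mki67, Top2a, Ccnb1, Cdk1) were lower without overlap, where 28.2% of all tested genes were. Cdk1 did not pass (limma adjusted p 0.0535). Their summed levels were 119 to 150 TPM in uninduced and 15.2 to 24.5 TPM in induced libraries. The 8 erythroid markers summed to 392 to 466 and 621 to 724 TPM. The globin genes Hba-a1, Hba-a2, Hbb-bs and Hbb-bt rose among them, and Car2 fell. The 8 granulocyte and monocyte markers summed to 235 to 284 and 234 to 284 TPM, among which Prtn3 rose and S100a9 was lower without overlap but did not pass; the median difference of the 6 tested was -0.62 log2 units. The 5 megakaryocyte markers summed to 87.9 to 111 and 113 to 126 TPM: Pf4 and Ppbp rose, and Itga2b and Vwf were lower without overlap but did not pass. Of 6 lymphoid markers, 5 were at 0 in every library, and the other, Ighm, stood at 1.90 to 8.86 TPM without induction and at 0 to 1.25 TPM with it. Cd48, which the gate selects against, was at 3.02 TPM or less. The stem cell markers Kit, Ly6a, Slamf1, Procr, Hlf, Mecom and Ptprc were all detected, with sums of 359 to 512 and 491 to 518 TPM. Among them Kit fell, from a mean of 172 to 95.7 TPM, while Ly6a, Procr and Hlf rose. After median-of-ratios scaling 5 of the 7 were called higher, with Mecom and Ptprc added, and 0 lower. Over all tested genes 2.84% were called higher and 3.21% lower on that scale.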

How the data were processed

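Expression was taken from 1 deposited table of TPM values, which the authors made as a column per library (3 uninduced, 3 induced; no column was left out). Its name gives StringTie, and the submitters' processing notes name bcl2fastq, HISAT2, StringTie, DESeq2 and GRCm38 without roles or versions; the read filter and annotation release are not given in the sources used here. TPM keeps no sequencing depth, so no counting interval can be given. GC content in percent is also deposited, per the file headers, and was not used. Rows were summed per gene ID (60496 rows, 5025 of them repeats, 55471 IDs); columns totalled 999976 to 999993 TPM.

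The test was limma 3.58.1 (R 4.3.3) on log2(TPM + 1) (empirical Bayes with a variance trend, two-sided, Benjamini-Hochberg over 13470 genes averaging 1 TPM or more, threshold 0.05), a step tested on simulated data. The labels call the libraries replicates but do not state that they came from separate mice, so p-values cover the spread between these libraries only. Sequences were aligned with Biopython 1.88 (local alignment; match 2, mismatch -3, gap opening -10, extension -0.5) and searched with BLAST 2.17.0 (E-value limit 1e-10).

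Members and lists were chosen with earlier results of these data known. The genes named are the members, the other subunits, up to 8 called genes of each of the transfer RNA and RNA polymerase III lists, the other small RNAs, the genes next to the 4 RNA genes and the 5 genes most like Rprl3 and Rpph1. Genes of a list of cell type and proliferation markers are named as well. Brf1 and Gm25661 were named after their values were seen. Alternatives were other pseudocounts, filters and scalings, no variance trend, a replicate block, the first row per gene ID and leaving out each library.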

Additional observations from a re-analysis of the deposited data

How the results depend on the processing

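With a library omitted, Rprl3 and Rprl2 differed by 10.17 to 10.84 and 5.17 to 5.41 log2 units, as a description of values that chose them. With a pseudocount of 0.1 or 5 they differed by 12.15 or 8.55 (Rprl3) and 8.0 or 3.16 (Rprl2), Pop1 by -1.91 or -0.57, Pop7 by -1.34 or -0.66 and Rpp38 by -0.49 or -0.29. The other subunits had 0 calls throughout. The 1549 calls over all genes (174 higher, 1375 lower) became 752 (96 and 656) without the filter, 815 (382 and 433) with scaling by median of ratios, 814 (374 and 440) with quantile normalization, 808 (416 and 392) after rescaling to nuclear protein-coding genes, 767 (108 and 659) without the variance trend, and 611 to 1276 with any one library omitted. The 5 calls of transfer RNA maturation became 1 without the filter, under the 3 scalings and without the trend, and 1 to 3 with a library omitted (1 or 2 of the same genes). The 3 calls of RNA polymerase III transcription became 0 without the filter and without the trend. At a mean of at least 5 TPM there were 5. Each of the 3 scalings gave 1 call, Brf1, which was higher and not among the 3. With a library omitted there were 0 to 2 calls (0 or 1 of the same genes).

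In the order median-of-ratios scaling, quantile normalization, protein-coding rescaling, the difference of Rmrp became 0.29, 0.31 and 0.33, its second row became 0.30, 0.30 and 0.33, and Pop4 became 0.048, 0.042 and 0.083. Rpph1 became 0.042, -0.55 and 0.079 in the same order, so quantile normalization moved it the other way. The summed TPM of Rpph1, Rprl2 and Rprl3 moved from -0.30 to 0.096 and 0.13 log2 units under median-of-ratios scaling and protein-coding rescaling, and lay between -0.39 and -0.19 with a library omitted. The cause of these changes was not tested.

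With any single library omitted, Pop4 ranged from -0.62 to 0.0050, Pop5 from -0.24 to 0.36, Pop1 from -1.63 to -0.85, Pop7 from -1.38 to -0.79, Rpp30 from -1.04 to -0.40, Rpp38 from -0.67 to -0.22, Rpph1 from -0.44 to -0.25, Rmrp from -0.16 to -0.056 and its second row from -0.16 to -0.039. Pop1 has no value at a mean of at least 5 TPM. With the replicate block, 902 genes passed (120 higher, 782 lower), with 2 members, 3 transfer RNA maturation genes and 0 RNA polymerase III genes. Same-numbered libraries share only a number: their deviations correlated at 0.0215, -0.0152 and 0.0172.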

Other observations

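The following rule was chosen after the values were seen, Rprl3 and Rprl2 included, so its count is a description. By that rule (a mean below 1 TPM in one group and at least 20 TPM in every library of the other), 4 of 55471 gene IDs were high in induced cells and 0 were high in uninduced cells. The mean was used for the low group so that Rprl3, at 1.68 TPM in uninduced replicate 2, would meet the rule. The 4 were Rprl3 on chromosome 8, Rprl2 on chromosome 3, C4b on chromosome 17 and Skint3 on chromosome 4. C4b, a complement component, had a listed value of 0 in each uninduced library, against 30.7, 26.1 and 27.4 TPM after induction. Skint3, a gene of an immunoglobulin-like family of skin and thymus, stood at 0.268, 0.543 and 0.191 TPM and at 22.7, 21.7 and 26.1 TPM. The minimum of 20 TPM leaves out genes that split as cleanly at a lower level, such as Gm27029 at 0 in each uninduced library and 5.08 to 5.57 TPM after induction.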
